A study of Mus musculus with 17 samples.

Results

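Itgax, Gpnmb, Spp1, Igf1 and Lgals3 are effector genes of disease-associated microglia (DAM), the state that microglia enter around amyloid plaques. They were taken by their symbols, 5 genes of the 13501 in the deposited table, and each had 1 row. All 5 passed the filter on low values. Every library held at least 10 normalized reads of each gene, apart from 8.04 reads of Gpnmb in the normal library S20.

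The DAM state is marked by a loss of homeostatic receptors and a gain of genes for phagocytosis, lipid handling, lysosomes and secreted signals. Its full form is known to need Trem2, a lipid-sensing receptor that signals through Tyrobp. The genes described here make proteins that act at the cell surface (Itgax, Gpnmb), are secreted as signals (Spp1, Igf1) or bind sugars on damaged lysosomes and outside the cell (Lgals3), and several of them are also known from macrophages outside the brain.

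RNA was sequenced in bulk from living brain cells that carried CD45 and CD11b, in 17 libraries of 5 groups. KO-donor cells (4 libraries, S32 to S35) were circulation-derived myeloid cells from Trem2 knockout bone marrow, taken from Trem2 knockout 5xFAD mice that had received the transplant together with PLX5622, a CSF1R inhibitor that depletes microglia. WT-donor cells (4 libraries, S28 to S31) came from the same kind of host after the same treatment, with Trem2 wild-type marrow. KO microglia (3 libraries, S25 to S27) came from untreated Trem2 knockout 5xFAD mice, and WT microglia (3 libraries, S22 to S24) from untreated Trem2 wild-type 5xFAD mice. Normal microglia (3 libraries, S20, S21 and S36) came from untreated wild-type mice without 5xFAD, the transgenes that cause amyloid plaques. Both transplanted groups shared the knockout host, the marrow transplant and the drug, so cell origin, treatment and, for wild-type cells, host genotype cannot be told apart in comparisons with resident microglia. The sort named in the labels' protocols used no donor marker, the kind of Trem2 knockout is not stated, and no age is given for the mice.

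Library totals ran from 16044078 to 30606394 reads. Trem2 checked the labels: it averaged 4499 ± 601 normalized reads in KO-donor cells and 45487 ± 8857 in WT-donor cells (SD, n = 4 each), 5282 ± 824 in KO microglia, 51275 ± 1868 in WT microglia and 33683 ± 3323 in normal microglia (SD, n = 3 each). Sall1, a transcription factor that defines microglia, averaged 187 ± 104 reads in KO-donor and 146 ± 70.3 in WT-donor cells, against 5451 ± 3325 in KO, 6061 ± 278 in WT and 8603 ± 189 in normal microglia. Ms4a7, a marker of brain macrophages of blood origin, ran the other way, with means of 17749 and 22563 reads in KO-donor and WT-donor cells against 1088, 381 and 997 in KO, WT and normal microglia. S30 and S31 lay closest together of all pairs within groups (chi-square per degree of freedom 4.98), followed by S22 and S23 (6.21) and S25 and S27 (9.86), against 13.6 or more for the other pairs. In KO microglia S26 stood apart, at 136 from both S25 and S27, so results are also given without it where it matters. No label says that replicates are separate animals, and a pair taken from 1 animal would count as 2 here.

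The windows around the starts of Itgax, Gpnmb and Spp1 are shown because these genes name the group and because each holds letters that match a factor of myeloid cells. RefSeq on GRCm38.p6 gave 6 windows for the 5 genes (2 for Spp1), each running from 250 bases before to 50 after the start. Itgax lies at chr7:128129300-128129599, Gpnmb at chr6:49036268-49036567 and Spp1 at chr5:104434861-104435160, all on the plus strand. Capitals mark matches to TGANTCA (AP-1), GAGGAAGT (PU.1) or TGTGGT (RUNX), searched on both strands, and no matches overlapped.
Itgax: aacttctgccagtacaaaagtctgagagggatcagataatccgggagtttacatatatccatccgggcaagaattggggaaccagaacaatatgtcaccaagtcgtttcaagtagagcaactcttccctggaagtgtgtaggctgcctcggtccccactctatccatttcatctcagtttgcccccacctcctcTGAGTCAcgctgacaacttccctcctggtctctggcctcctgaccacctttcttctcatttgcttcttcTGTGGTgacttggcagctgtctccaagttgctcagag
Gpnmb: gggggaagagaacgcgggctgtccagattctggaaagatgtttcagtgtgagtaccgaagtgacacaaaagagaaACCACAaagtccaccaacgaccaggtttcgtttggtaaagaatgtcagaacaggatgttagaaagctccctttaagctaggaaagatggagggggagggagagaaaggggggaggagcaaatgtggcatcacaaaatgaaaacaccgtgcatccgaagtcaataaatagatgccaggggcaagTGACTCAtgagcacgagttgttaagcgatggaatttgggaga
Spp1: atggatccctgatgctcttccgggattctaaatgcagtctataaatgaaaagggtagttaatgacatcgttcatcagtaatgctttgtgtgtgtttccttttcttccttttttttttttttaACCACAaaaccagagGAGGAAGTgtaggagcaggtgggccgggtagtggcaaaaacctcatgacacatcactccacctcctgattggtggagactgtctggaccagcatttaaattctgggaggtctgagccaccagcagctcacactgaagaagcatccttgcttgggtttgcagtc
The AP-1 letters stood in the windows of Itgax (56 bases before the start), Gpnmb (8 bases after it) and Igf1 (37 bases before it), and 7.81% of all 32851 mouse windows held them. The RUNX letters stood in the windows of Itgax, Gpnmb and Spp1, and 16.8% of all windows held them. The PU.1 letters stood in the Spp1 window, 113 bases before the start, and 3.2% of all windows held them. The letters CACGTG and CATGTG (E-boxes, the kind of site MiT/TFE factors bind) were in none of the 6 windows, while 7.15% and 14.2% of all windows held them, and TATAAA stood in the Spp1 window (13.6% of all). These matches describe the letters and show no binding.

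Itgax encodes CD11c, an integrin alpha subunit that pairs with the beta subunit Itgb2 and serves as a surface marker of plaque microglia and of dendritic cells. The gene spans chromosome 7, positions 128129547 to 128150657 (GRCm38, GENCODE vM21). It had 965, 1801, 1230 and 909 normalized reads in the KO-donor libraries S32 to S35, against 1912, 3219, 3436 and 3637 in the WT-donor libraries S28 to S31. In KO microglia it had 638, 484 and 647 reads (S25 to S27), against 4027, 4214 and 4158 in WT microglia (S22 to S24) and 397, 296 and 298 in normal microglia (S20, S21, S36). No 2 groups overlapped, and the means descended from WT microglia through WT-donor cells, KO-donor cells and KO microglia to normal microglia. WT microglia were also the most even group for this gene, at 4133 ± 96.1 reads (SD, n = 3).

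Itgax was lower with Trem2 knockout in both kinds of cell. KO microglia lay below WT microglia by −2.82 on the log2 scale (SE 0.24, adjusted p = 2.27e-06, limma with Benjamini-Hochberg adjustment over 12074 genes), a fold of 0.142. KO-donor cells lay below WT-donor cells by −1.33 (SE 0.21, adjusted p = 0.00404), a fold of 0.399. The call in transplanted cells was lost without S30 and S31 together (−1.07, adjusted p = 0.113), when the closest pairs were averaged (−1.24, adjusted p = 0.0511) and when only the 8 transplanted libraries were fitted (adjusted p = 0.0516). WT-donor cells were 2.34 higher than KO microglia (adjusted p = 3.95e-07), and KO-donor cells were 1.01 higher than KO microglia (adjusted p = 0.00285). Between WT-donor cells and WT microglia the difference of −0.48 did not pass (adjusted p = 0.128).

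Gpnmb encodes a transmembrane glycoprotein of phagocytes that sits in lysosomes and at the cell surface and is a known target of the MiT/TFE factors. It lies on chromosome 6, positions 49036546 to 49070929. KO-donor libraries had 704, 4888, 4105 and 1317 reads (S32 to S35), against 3053, 4690, 7737 and 7610 in WT-donor libraries (S28 to S31). KO microglia had 802, 54.7 and 980 reads (S25 to S27), against 1668, 1771 and 2507 in WT microglia and 8.04, 44.7 and 22.7 in normal microglia. The 3 normal libraries were below all others, and S26 was the only 5xFAD library near them. KO and WT microglia did not overlap, while the 2 donor groups did.

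By estimate, Gpnmb had the largest log2 difference of the 5 genes from normal microglia in each group. No test compared the genes, and the normal libraries held only 8.04 to 44.7 reads of Gpnmb. WT-donor cells were 7.98 higher on the log2(value + 1) scale (SE 0.82, adjusted p = 5.59e-07), KO-donor cells 6.60 (adjusted p = 6.36e-06), WT microglia 6.51 (SE 0.88, adjusted p = 0.000156) and KO microglia 4.04 (SE 0.88, adjusted p = 0.0217). These comparisons share the normal libraries. The call for KO microglia was lost when S20, S25, S27 or S36 was left out. Knockout differences were −2.47 in microglia (95% CI −4.31 to −0.62, adjusted p = 0.118) and −1.37 in transplanted cells (95% CI −2.97 to 0.22, adjusted p = 0.252), so neither passed. Without S26 the difference in microglia was −1.14 (adjusted p = 0.215), and with S26 as the only KO library it was −5.13 (adjusted p = 0.00371), where the lone library was assumed to vary like the other groups.

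Spp1 encodes osteopontin, a secreted phosphoprotein that binds integrins and Cd44. It lies on chromosome 5, positions 104435118 to 104441050. KO-donor libraries had 1103, 18261, 26711 and 702 reads (S32 to S35), against 4776, 10975, 11469 and 12140 in WT-donor libraries (S28 to S31). KO microglia had 1753, 244 and 1928 reads, against 4049, 3794 and 5688 in WT microglia and 405, 506 and 540 in normal microglia. S33 and S34 held more Spp1 than any other library, while S32 and S35, with the same labels, lay below every WT-donor and WT microglia library. The highest KO-donor library was 38.1 times the lowest, against a ratio of 1.98 for Itgax, 6.95 for Gpnmb, 2.00 for Igf1 and 1.90 for Lgals3 in the same 4 libraries.

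This spread left the Spp1 knockout difference in transplanted cells without a stable direction. The group mean was higher in KO-donor cells, 11694 ± 12931 reads against 9840 ± 3409 in WT-donor cells (SD, n = 4 each), while the mean of log2 values was lower by −1.07 (95% CI −2.98 to 0.84, adjusted p = 0.462). On the recovered reads the sign turned, to 0.34 with edgeR's quasi-likelihood test and 0.25 with DESeq2, neither past the threshold. In microglia the knockout difference was −2.24 (95% CI −4.45 to −0.03, adjusted p = 0.221), although the KO and WT libraries did not overlap. It was −1.27 without S26 (adjusted p = 0.384) and −4.18 with S26 as the only KO library (adjusted p = 0.177). Spp1 rose in WT-donor cells against normal microglia by 4.26 (adjusted p = 0.00268) and in KO-donor cells by 3.20 (adjusted p = 0.0204). The rise in KO-donor cells was lost without S33 (2.51, adjusted p = 0.0715), S34 (2.33, adjusted p = 0.0681) or any 1 of the normal libraries S20, S21 and S36, and with only the 7 libraries fitted (adjusted p = 0.0676). WT microglia were 3.21 higher than normal, which did not pass (adjusted p = 0.112), and passed when only these 6 libraries were fitted (adjusted p = 3.41e-07), in DESeq2 (adjusted p = 0.0286) and without S26 (adjusted p = 0.0488).

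Igf1 encodes insulin-like growth factor 1, a secreted growth factor that acts on neurons and oligodendrocyte precursors. It lies on chromosome 10, positions 87858265 to 87937042. KO-donor libraries had 855, 1295, 1706 and 948 reads, against 1645, 1556, 2475 and 2526 in WT-donor libraries. KO microglia had 1017, 137 and 998 reads, against 1000, 996 and 1298 in WT microglia and 87.4, 81.8 and 151 in normal microglia. S25 and S27 were level with the lowest WT microglia, while S26 fell within the range of normal microglia. The 4 groups of 5xFAD mice thus overlapped in a chain from WT-donor cells down to KO microglia.

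Igf1 rose against normal microglia in all 4 groups, by 3.48 in KO-donor cells (adjusted p = 2.68e-05), 4.27 in WT-donor cells (adjusted p = 2.28e-06), 2.33 in KO microglia (adjusted p = 0.0257) and 3.40 in WT microglia (SE 0.53, adjusted p = 0.000596). The rise in KO microglia was lost when S20, S21, S25 or S27 was left out. The knockout difference was −0.79 in transplanted cells (95% CI −1.75 to 0.17, adjusted p = 0.272) and −1.07 in microglia (95% CI −2.18 to 0.04, adjusted p = 0.244), and neither passed. Without S26 the difference in microglia was −0.11 (adjusted p = 0.806), while with S26 as the only KO library it was −2.98 and passed (adjusted p = 0.000432). The difference between donors passed without S26 (adjusted p = 0.0308) and without S25 and S27 (adjusted p = 0.0413), which change the spread of the model and not the value.

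Lgals3 encodes galectin-3, a lectin that gathers on damaged lysosomes and is known in mouse as the macrophage antigen Mac-2. It lies on chromosome 14, positions 47367751 to 47386160. KO-donor libraries had 1794, 3012, 3157 and 1660 reads, against 4003, 4758, 8878 and 8921 in WT-donor libraries. KO microglia had 3796, 1306 and 3733 reads, against 1105, 1199 and 1485 in WT microglia and 692, 632 and 873 in normal microglia. The donor groups did not overlap, with WT-donor cells above, whereas in microglia S25 and S27 lay above every WT library and S26 lay among them.

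Lgals3 fell with knockout in transplanted cells, by −1.43 on the log2 scale (SE 0.33, adjusted p = 0.0215), and was higher in KO than in WT microglia by 1.08 (SE 0.38, 95% CI 0.29 to 1.87), which did not pass (adjusted p = 0.111). It passed in microglia without S26 (1.59, adjusted p = 0.00218) and in DESeq2 (1.22, adjusted p = 0.0125). In transplanted cells it was lost without S30 (−1.26, adjusted p = 0.0908), without S31 (−1.26, adjusted p = 0.0862), without both (−0.92, adjusted p = 0.354), with the closest pairs averaged (−1.26, adjusted p = 0.122) and with only those 8 libraries fitted (adjusted p = 0.0708). Against normal microglia Lgals3 rose by 1.67 in KO-donor cells (adjusted p = 0.00141), 3.10 in WT-donor cells (adjusted p = 1.86e-06) and 1.86 in KO microglia (adjusted p = 0.0154), the last lost without S20, S21, S25 or S27. In WT microglia the difference of 0.79 did not pass (adjusted p = 0.31). WT-donor cells exceeded WT microglia by 2.31 (SE 0.35, adjusted p = 6.37e-05).

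**Figure D1:**
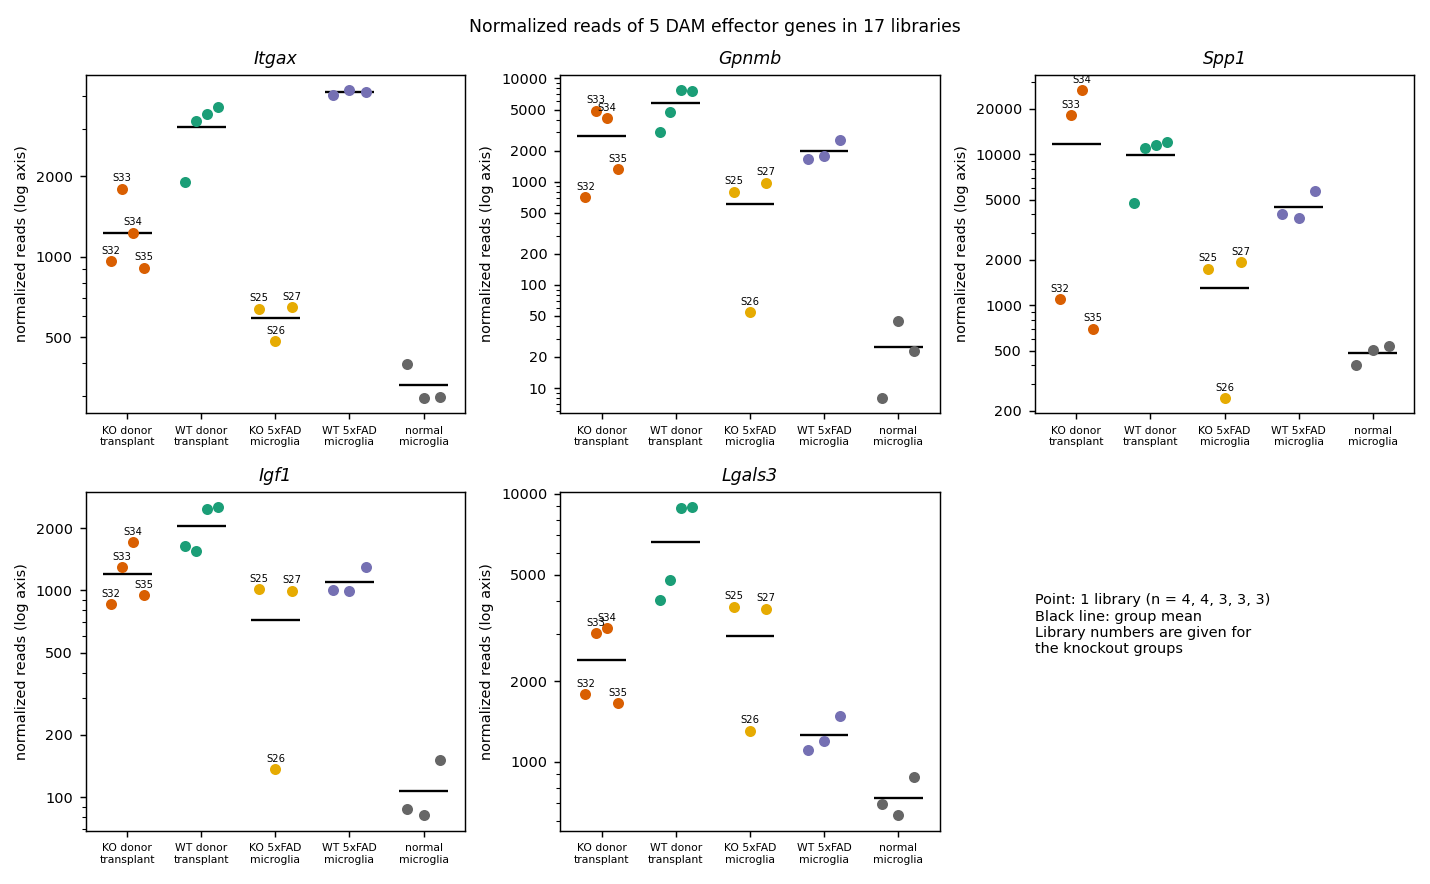
Normalized reads (log axis) of Itgax, Gpnmb, Spp1, Igf1 and Lgals3 in the 17 libraries, 1 point per library with the group mean as a black line. Itgax separates all 5 groups, Spp1 in KO-donor cells runs from 702 to 26711 reads, and S26 is the lowest KO microglia library for all 5 genes.

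Set against normal microglia, all 5 genes rose in KO-donor cells, where 28.6% of all tested genes were called (14.3% higher, 14.3% lower). All 5 also rose in WT-donor cells, where 30.4% were called (16.1% higher, 14.3% lower). In KO microglia 3 of 5 rose (Gpnmb, Igf1 and Lgals3), where 3.91% were called (2.7% higher, 1.21% lower). In WT microglia 3 of 5 rose (Itgax, Gpnmb and Igf1), where 3.78% were called (2.83% higher, 0.952% lower). The background is thus several times higher for transplanted cells than for microglia. Itgax gave 0.84 in KO microglia (SE 0.24, adjusted p = 0.0592) and Spp1 gave 0.97 (adjusted p = 0.559). Itgax passed in DESeq2 (adjusted p = 0.0201), without S26 (0.97, adjusted p = 0.00804) and without S28, S33 or S34 (adjusted p = 0.0379 to 0.0492), which makes the count in KO microglia 4. The count became 2 without S36, 1 without S21, and 0 without S20, without S25, without S27, without S25 and S27, with the closest pairs averaged, or with only the 6 libraries fitted. In WT microglia it became 5 when only the 6 libraries were fitted.

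**Figure D2:**
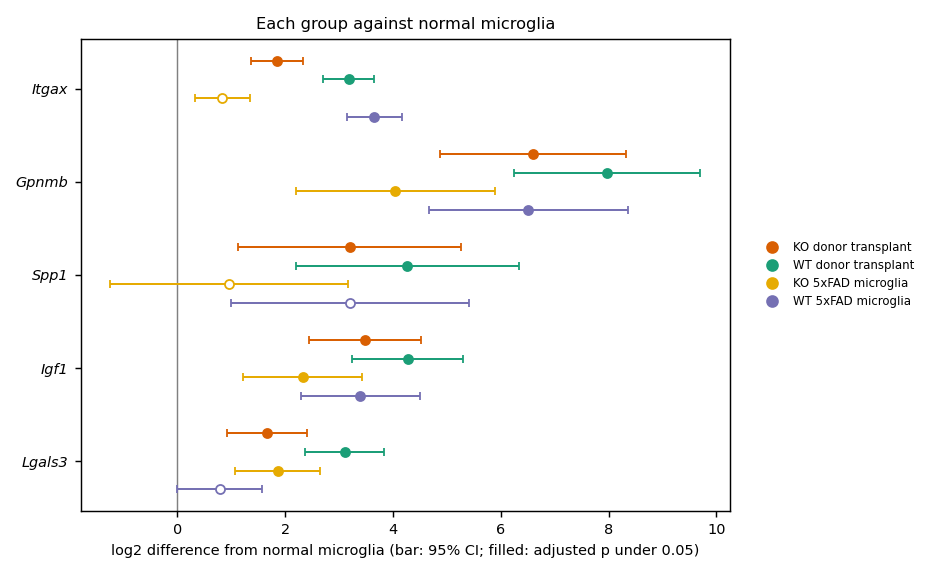
Log2 difference from normal microglia for each of the 5 genes in KO-donor, WT-donor, KO 5xFAD and WT 5xFAD cells, with 95% confidence intervals of the limma model; filled points passed adjusted p under 0.05. Gpnmb lies farthest to the right in every group, from 4.04 in KO microglia to 7.98 in WT-donor cells, and the open points are Itgax and Spp1 in KO microglia and Spp1 and Lgals3 in WT microglia.

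Read across the genes, libraries lay closest together in WT microglia, where the highest and lowest differed by at most 0.59 log2 units for any of the 5 genes. In WT-donor cells they differed by 0.70 (Igf1) to 1.35 (Spp1). In KO-donor cells S33 and S34 lay 5.25 and 5.79 log2 units above the normal mean for Spp1, while S32 and S35 lay 1.20 and 0.55 above it. The same 4 libraries spanned 5.25 log2 units for Spp1 and 2.79 for Gpnmb, against 0.99 for Itgax, 1.00 for Igf1 and 0.93 for Lgals3. In KO microglia S26 lay 0.97 below the normal mean for Spp1 and 1.38 above it for Gpnmb, while S25 and S27 lay 5.23 and 5.52 above it for Gpnmb.

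**Figure D3:**
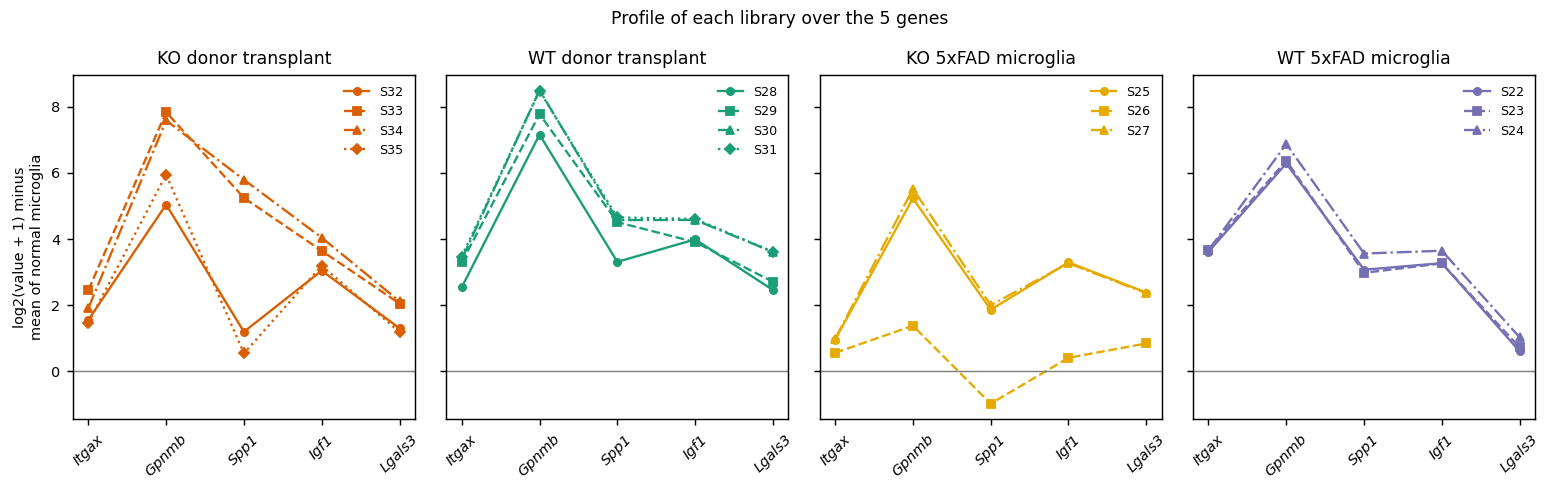
Log2(value + 1) minus the mean of normal microglia for the 5 genes, 1 line per library, in KO-donor cells, WT-donor cells, KO 5xFAD microglia and WT 5xFAD microglia. The KO-donor lines part at Spp1 (S33 and S34 high, S32 and S35 low) and S26 runs below S25 and S27 throughout.

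The knockout comparison asked whether these genes depend on Trem2 in transplanted cells as in microglia. In transplanted cells 2 of 5 were called, both lower (Itgax and Lgals3), where 6.74% of all genes were called (2.99% higher, 3.75% lower). In microglia 1 of 5 was called, lower (Itgax), where 5.09% were called (2.5% higher, 2.59% lower). The difference between these differences, transplanted minus resident, passed for Itgax (1.49, SE 0.32, adjusted p = 0.0153) and Lgals3 (−2.51, SE 0.50, adjusted p = 0.00828), 2 of 5 where 2.82% of all genes were called (0.87% higher, 1.95% lower). Thus the Itgax deficit was smaller in transplanted cells. The Lgals3 estimates had opposite signs in the 2 kinds of cell, but the one in microglia did not pass and was 0.06 without S25 and S27. The difference between differences was 1.09 for Gpnmb (95% CI −1.35 to 3.53, adjusted p = 0.67), 1.17 for Spp1 (−1.75 to 4.09, adjusted p = 0.706) and 0.28 for Igf1 (−1.18 to 1.74, adjusted p = 0.874). For these 3 genes the knockout differences in the 2 kinds of cell were not shown to differ, and the intervals are wide. Without S25 and S27 the Igf1 value was 2.19 and passed (adjusted p = 0.0202), and without S26 it was −0.68 (adjusted p = 0.227). The Itgax call was lost with the closest pairs averaged (1.64, adjusted p = 0.101). The Lgals3 call was lost without S25 and S27 (−1.49, adjusted p = 0.142), without S30 and S31 (adjusted p = 0.0724) and with the closest pairs averaged (−2.02, adjusted p = 0.187).

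**Figure D4:**
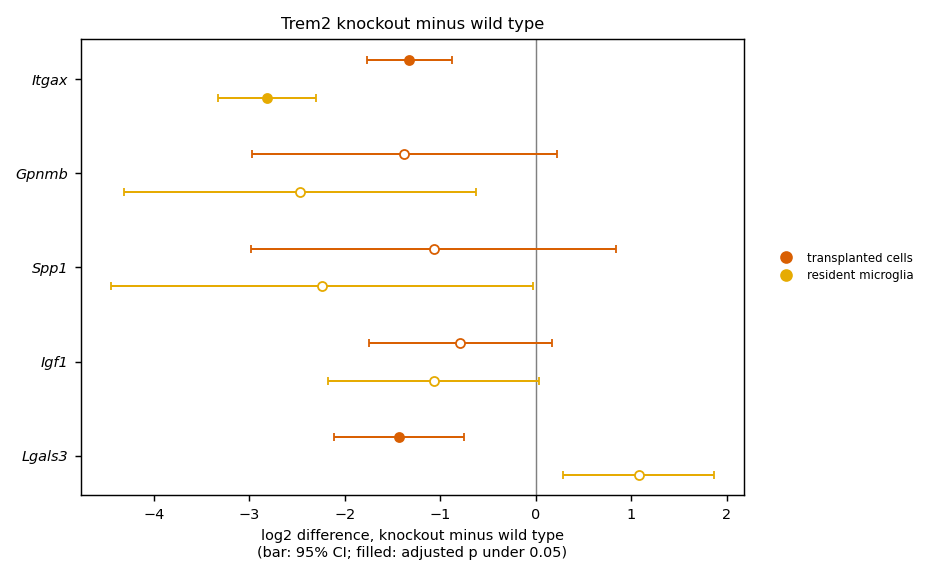
Log2 difference between Trem2 knockout and wild type (knockout minus wild type) in transplanted cells and in resident 5xFAD microglia, with 95% confidence intervals; filled points passed adjusted p under 0.05. Itgax is below 0 in both, at −1.33 and −2.82, and Lgals3 is at −1.43 in transplanted cells and 1.08 in microglia.

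Markers of other cells also differed between KO and WT microglia, where 2.5% of all genes were called higher. In KO microglia 8 of 10 tested monocyte markers were higher than in WT microglia and none was lower (median log2 difference 3.05, against −0.01 over all genes), as were 9 of 12 neutrophil markers (median 4.26) and 5 of 7 markers of brain macrophages of blood origin (median 1.46). Without S25 and S27 the monocyte count was 5 and the macrophage count 2. The summed level of the 11 monocyte markers was 17847, 7320 and 18310 reads in S25, S26 and S27, against 1891 to 2103 in WT microglia. Among KO microglia S26 was thus lowest both for these markers and for Lgals3. Normal microglia had monocyte sums of 2456 to 3664 reads, above WT microglia, and held less Lgals3 than WT microglia in every library. In transplanted cells limma called 0 of 10 monocyte and 0 of 12 neutrophil markers between donors (1 each at an unadjusted p under 0.05, 0 each with edgeR, 0 and 1 with DESeq2), and monocyte sums were 2578 to 5501 reads in KO-donor and 2700 to 4710 in WT-donor cells. Lgals1, which encodes galectin-1, was also higher in KO than in WT microglia by 2.01 (adjusted p = 4.47e-05). The part of these cells in the Lgals3 result was not tested. In bulk libraries fewer cells of a type and less RNA per cell cannot be told apart.

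Oligodendrocyte markers set S30 and S31 apart, with sums of 23438 and 23674 reads over 7 markers against 7052 and 11087 in S28 and S29 and 4525 to 6226 in KO-donor cells. Of these 7 markers 5 were lower in KO-donor than in WT-donor cells, against 3.75% of all genes. None of the 7 was called without S30 and S31. These 2 libraries also held the most Lgals3 of all, and the part of oligodendrocyte RNA in the donor differences was not tested.

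Itgax is also a dendritic cell marker. The summed level of 10 conventional dendritic cell markers was 1160 to 1734 reads in KO-donor and 985 to 1647 in WT-donor cells, 1891 to 2001 in KO microglia, 1056 to 1153 in WT microglia and 1680 to 2235 in normal microglia. WT microglia, the group with the most Itgax, had a lower sum than KO or normal microglia in every library. Flt3 and Zbtb46, also used as markers of these cells, averaged 53.5 and 131 reads in WT microglia against 64.1 and 146 in normal microglia. The part of dendritic cells in the Itgax values was not tested.

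**Figure D5:**
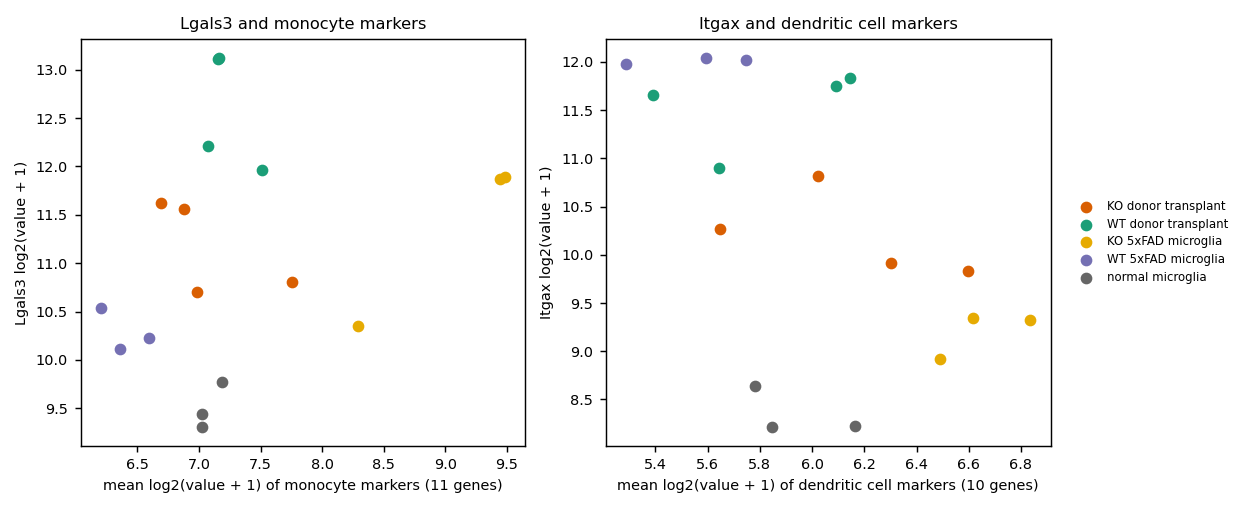
Left, Lgals3 against the mean log2(value + 1) of 11 monocyte markers; right, Itgax against that of 10 dendritic cell markers; 1 point per library, coloured by group. KO microglia S25 and S27 lie at the far right on the left (9.48 and 9.45), and WT microglia hold the highest Itgax at dendritic marker levels of 5.29 to 5.75.

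Relative to KO microglia, the resident cells of the same kind of host, WT-donor cells held more of all 5 genes, where 35.1% of all genes were called (17.3% higher, 17.8% lower): Itgax by 2.34, Gpnmb by 3.93 (adjusted p = 0.00133), Spp1 by 3.30 (adjusted p = 0.0151), Igf1 by 1.95 (adjusted p = 0.00561) and Lgals3 by 1.24 (adjusted p = 0.0116). For each gene every WT-donor library lay above every KO microglia library. The share of all genes without overlap between these groups was not counted, so this only describes the values. Without S26, 3 genes were called, as Spp1 (2.33, adjusted p = 0.0629) and Lgals3 (0.73, adjusted p = 0.0555) missed the threshold, and without S30 and S31 2 were called, Itgax and Gpnmb. Averaging the closest pairs also left Spp1 uncalled (3.67, adjusted p = 0.0585). With KO donors 2 of 5 genes were higher than in KO microglia, where 25.4% of all genes were called (11.7% higher, 13.7% lower): Itgax by 1.01 and Gpnmb by 2.56 (adjusted p = 0.0282). The Gpnmb call was lost without S26 (1.23, adjusted p = 0.143), S33 (2.15, adjusted p = 0.0916) or S34 (2.23, adjusted p = 0.0656).

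WT-donor cells and WT microglia differed in 1 of the 5 genes, Lgals3, where 28.2% of all genes were called (13.6% higher, 14.6% lower). Gpnmb was 1.47 higher (95% CI −0.26 to 3.19, adjusted p = 0.197), Spp1 1.06 (adjusted p = 0.454) and Igf1 0.88 (−0.16 to 1.91, adjusted p = 0.198) in WT-donor cells. These 3 passed when only the 7 libraries were fitted (adjusted p = 0.00376, 0.0191 and 0.00534), and Igf1 also without S26 (adjusted p = 0.00985). Between KO-donor cells and WT microglia 1 of 5 differed, Itgax at −1.81 (adjusted p = 7.74e-06), where 26.5% of all genes were called (11.1% higher, 15.4% lower). Gpnmb (0.09), Spp1 (−0.01) and Igf1 (0.09) were near 0 there, with intervals that reach 1.82, 2.06 and 1.12. In both comparisons 1 of 5 is below the share of all genes called, so neither count is a result about these genes.

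Other DAM genes gave the background for these 5. Of 30 further signature genes 26 rose in WT microglia against normal, with a median of 1.07, among them Cst7, a cysteine protease inhibitor (6.08), and Ank, a pyrophosphate transporter (3.44). In KO against WT microglia 13 of the 30 fell and none rose (median −0.57), with Ank at −2.86, Cst7 at −2.70, Csf1 at −2.40 and Axl at −2.13. In KO-donor against WT-donor cells 7 of 30 fell and none rose (median −0.35), with Lpl, a lipase, at −3.25 and Ch25h, a cholesterol hydroxylase, at −1.76. That 7 became 1 without S30 and S31 and 11 without S26. Over all genes 2.83% rose in WT against normal microglia, 2.59% fell in KO against WT microglia and 3.75% in KO-donor against WT-donor cells. The difference between knockout differences, transplanted minus resident, was above 0 for Ank (2.97, adjusted p = 9.3e-09), Axl (1.85, adjusted p = 0.000115) and Csf1 (1.80, adjusted p = 0.0288), as for Itgax. For Ank it was as large as the deficit in microglia, so KO-donor cells were not lower than WT-donor cells. WT-donor cells themselves were lower in Ank than WT microglia (−2.32, limma adjusted p = 5.52e-11). Lyz2 went the other way (−1.42, adjusted p = 0.0153).

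A list of integrin subunits and Cd44 held Itgb2, the partner of CD11c, receptors of osteopontin and other integrins. In limma 0 of its 13 genes passed the threshold in WT against normal microglia, where 3.78% of all genes were called. Of the 13, 4 had an unadjusted p under 0.05, 0 passed with edgeR and 1 with DESeq2. Itgb2, the partner of Itgax, averaged 12963 ± 2095 reads in KO-donor, 15475 ± 294 in WT-donor cells, 14762 ± 1908 in KO, 20175 ± 261 in WT and 17268 ± 1386 in normal microglia. In KO against WT microglia 4 of 13 rose (2 without S25 and S27), including Itgb7 (2.04), Itga4 (1.58) and the osteopontin receptor Cd44 (1.07), and 1 fell (7 without S26), Itga5 (−0.98). Blood leukocytes also carry Itgb7, Itga4 and Cd44, and the part of the neutrophil and monocyte markers described above in these rises was not tested. Of all genes 2.5% rose and 2.59% fell in KO against WT microglia. WT-donor cells exceeded WT microglia in Itgal (4.33), Itga4 (4.11) and Cd44 (2.08) and were lower in Itgb3 (−4.27). There 4 of 13 were higher and 5 lower (2 lower without S30 and S31), against 13.6% and 14.6% of all genes.

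In the insulin-like growth factor axis 1 of 13 tested genes rose in WT microglia against normal, the adaptor Irs2 (0.62, adjusted p = 0.0031). Of all genes 2.83% rose there. WT-donor cells differed from WT microglia in 7 of 13, with 2 higher and 5 lower (1 and 4 without S30 and S31). In that comparison 28.2% of all genes were called (13.6% higher, 14.6% lower), so the 2 higher genes are near the share of all genes. Irs2 was higher (1.35) as was the binding protein Igfbp4 (1.13), while Igf1r, the Igf1 receptor, was lower (−2.38) with Igf2bp2 (−4.83), an RNA-binding protein of Igf2 mRNA. Igfbp2 (−3.62) and Igfbp7 (−2.07) were lower in KO-donor than in WT-donor cells, and neither was called without S30 and S31.

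Among galectins, Lgals1 and Lgals3bp, a secreted galectin-3 ligand, moved apart in microglia. Lgals3bp rose in WT microglia against normal (1.67, adjusted p = 3.46e-06) and fell in KO against WT microglia (−1.05, adjusted p = 0.000374), while Lgals1 fell in WT against normal microglia (−0.95, adjusted p = 0.0323). Lgals1 averaged 2156 ± 313 reads in KO-donor and 3375 ± 965 in WT-donor cells, 1137 ± 371 in KO, 272 ± 22.9 in WT and 529 ± 80.6 in normal microglia. Its knockout difference, like that of Lgals3, differed between transplanted cells and microglia (−2.62, adjusted p = 0.000118). WT-donor cells exceeded WT microglia by 3.59 (adjusted p = 1.05e-09).

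Around Gpnmb, limma called 0 of 10 MiT/TFE factors and lysosome regulators in WT microglia against normal, where 3.78% of all genes were called. Of these 10, 3 had an unadjusted p under 0.05, 0 passed with edgeR and 1 with DESeq2. In KO against WT microglia Grn, the progranulin gene, fell (−0.66, adjusted p = 0.0302), the 1 called of 10, against 2 that rose and 4 that fell without S26 and no call without S25 and S27. As 5.09% of all genes were called in KO against WT microglia, 1 of 10 is not a result about this list. Adam10, a protease known to shed the Gpnmb ectodomain, was higher in KO-donor than in WT-donor cells (0.49, adjusted p = 0.0341). It was the 1 called of 10 there, against 6.74% of all genes. Adam10 was lower in WT-donor cells than in WT microglia (−0.40, adjusted p = 0.0413). In that comparison 3 of 10 were called, against 28.2% of all genes. Without S30 and S31 no gene of this list was called in either comparison. Atp6v0d2, a proton pump subunit of lysosomes, averaged 93.3 ± 18.5 reads in WT microglia and was at 0 to 1 read in normal microglia (adjusted p = 0.00501). Among 12 matrix and protease genes Mmp12 (3.25) and the urokinase receptor Plaur (1.82) rose in WT against normal microglia. Plaur fell in KO microglia (−1.01) and in KO-donor cells (−0.72) against their wild types, Mmp12 fell in KO-donor cells (−1.62), and Mmp9, a neutrophil protease, rose in KO microglia (3.57). None of the 12 was called between donors without S30 and S31.

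The genes most like each of the 5 were found by the mean absolute difference of centred log2 values over the 17 libraries, where 0 is an identical pattern. Itgax was nearest to Ccrl2, a chemokine receptor (0.43), Ch25h (0.44) and Fam20c, a secretory-pathway kinase (0.44), against a median of 1.26 over all tested genes. Gpnmb was nearest to Armc2 (0.96) and Atp6v0d2 (1.02) with a median of 2.42, and Spp1 to Ch25h (0.74), Gdf15, a stress-induced cytokine (0.78), and Igf1 (0.85) with a median of 1.82. Igf1 was nearest to Clec7a, the beta-glucan receptor (0.35), Armc2 (0.40) and the elastase Mmp12 (0.44) with a median of 1.33. Lgals3 was nearest to Vim, the intermediate filament vimentin (0.31), Pdlim7 (0.35) and Mocos (0.40), with a median of 1.06. Only the Spp1 and Igf1 pair among the 5 appeared in such a list, and Gpnmb and Lgals3 were the least alike of the 5 (1.84). The libraries share their groups, so these values describe and do not test.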

How the data were processed

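Total RNA from DAPI-negative CD45+CD11b+ brain cells was sequenced as SMART-Seq v4 libraries, per the labels' protocols. The authors deposited 1 normalized signal per gene and library, which behaves as reads scaled by a single factor for the whole library: within a tolerance of 0.02 of a read, the values were whole multiples of 1 step in each library, although in S20 the step was too near 1 for this to be a test. The submitters' processing notes name bcl2fastq, STAR 2.5.2b, HTSeq, RSEM and DESeq2 (given as version 3.17); no source used here says which program counted or whether strand was used.

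The symbols of the 5 genes were looked up, and log2(value + 1) was fitted with limma 3.58.1 in R 4.3.3 (lmFit and eBayes with trend, a mean per group, 17 libraries) over 12074 genes; the 1427 that did not reach 10 in 3 libraries were removed. A gene was called at a two-sided Benjamini-Hochberg adjusted p under 0.05 over all genes, and log2 differences carry the model's standard error or 95% confidence interval. The differences understate changes of genes with low values. Members, gene lists and tests were chosen with earlier results of these data known. Named besides the members are Trem2, up to 4 genes with the smallest p of each list described in a comparison, and the 3 genes most like each member without predicted genes; levels that support a statement on markers name a few more. edgeR 4.0.16 and DESeq2 1.42.0 on the recovered reads, other pseudocounts, filters and scalings, and fits without libraries were the alternatives. The procedure was tested on simulated data. Columns outside the normal group carry no distinct replicate number, so libraries were assigned to groups only, and p-values cover the spread among these samples, which may be technical. Positions are from GENCODE vM21 and promoter windows from RefSeq, both on GRCm38.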

Additional observations from a re-analysis of the deposited data

Results flagged for a closer look

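Among the 4 WT-donor libraries S28 held 4776 reads of Spp1, apart from the others at 10975 to 12140. Its gap to the nearest was 0.842 of the group's range, just above the 95% critical value of Dixon's test, which chance passes in about 1 of 20 groups. S28 was also the lowest of the 4 for Itgax, Gpnmb and Lgals3.

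The knockout difference in transplanted cells differed from that in resident microglia, by the limma interaction term, for Itgax (1.49 on the log2 scale) and Lgals3 (−2.51) among the 5 genes. Among other DAM genes it did so for Ank (2.97), Axl (1.85), Csf1 (1.80) and Lyz2 (−1.42), and among integrins and galectins for Cd44 (−1.34), Itgb7 (−1.87) and Lgals1 (−2.62). The calls of Ank, Axl and Lgals1 held under all 27 alternatives, while those of Itgb7, Csf1, Lyz2 and Cd44 were lost under some. Lgals3, Lyz2, Cd44, Itgb7 and Lgals1 are also carried by blood leukocytes, and 9 of 12 neutrophil and 7 of 10 monocyte markers were called in the same direction in this term (medians −4.53 and −3.17). Their part in these results was not tested. Of all genes 1.95% were called lower in this term.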

How the results depend on the processing

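No paired analysis was possible because the columns outside the normal group carry no distinct replicate numbers. Over 27 alternatives, 1381 of 1485 log2 differences of the 5 genes kept their direction and side of the threshold, 50 lost a call, 33 gained one and 21 changed sign. Itgax stayed called in KO against WT microglia under all 27.

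The number of the 5 genes called changed with the set of libraries. The number called over all genes changed too, as given below for some settings, so these counts alone are not results about the 5 genes. With only the groups compared it was 5 for WT against normal microglia, 0 for KO against normal microglia, 0 for KO-donor against WT-donor cells, 4 for WT-donor cells against WT microglia, 1 for KO-donor cells against KO microglia and 2 for KO-donor cells against WT microglia. Without S25 and S27 it was 0 for KO against normal microglia, 3 for KO against WT microglia, 2 for WT-donor cells against WT microglia, 4 for KO-donor cells against KO microglia and 2 for KO-donor cells against WT microglia. Without S30 and S31 it was 0 between donors, 2 for WT-donor cells against KO microglia and 1 for the interaction. With the closest pairs averaged it was 0 for KO against normal microglia, 0 between donors and 0 for the interaction. DESeq2 gave 2 for KO against WT microglia and 2 for KO-donor cells against WT microglia. Leaving out 1 library at a time, the counts ran from 3 to 4 (WT against normal), 0 to 4 (KO against normal), 5 to 5 (WT-donor against normal), 4 to 5 (KO-donor against normal), 1 to 2 (KO against WT microglia), 1 to 3 (between donors), 1 to 2 (WT-donor against WT microglia), 1 to 3 (KO-donor against KO microglia), 3 to 5 (WT-donor against KO microglia), 1 to 2 (KO-donor against WT microglia) and 2 to 2 (interaction). Counts moved both up and down, and the cause was not tested.

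Where a sign turned, neither the reported nor the turned value passed the threshold. Spp1 became −0.97 for KO against normal microglia without S25 and S27, 0.34 (edgeR) and 0.25 (DESeq2) between donors, and 0.008 (TMM), 1.39 (edgeR) and 1.37 (DESeq2) for KO-donor cells against WT microglia. Leaving out 1 library, this last ran from −0.88 to 0.87 for Spp1, −0.32 to 0.61 for Gpnmb and −0.10 to 0.23 for Igf1. Lgals3 between KO-donor cells and KO microglia became 0.82 without S25 and S27 and 0.0572 with the closest pairs averaged, and ran from −0.71 to 0.0632 when 1 library was left out. In the interaction Igf1 became −0.0773 (edgeR) and −0.16 (DESeq2) and ran from −0.68 to 0.77, and Gpnmb from −0.24 to 1.83.

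Counts over all genes moved too. Without S26 they were 3666 against 615 for KO against WT microglia and 4600 against 472 for KO against normal microglia (1 with only the groups compared). WT against normal microglia gave 457, against 1757 with only the groups compared and 245 with the closest pairs averaged. Between donors 814 became 20 without S30 and S31 and 1881 without S28. Without S25 and S27 KO microglia are 1 library, assumed to vary like the other groups. Depth does not limit the 5 genes, except Gpnmb in normal microglia (8.04 to 44.7 reads).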

Other observations

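Homeostatic microglia genes, the counterpart of the DAM genes, differed mainly between transplanted cells and resident microglia. Cell origin and treatment cannot be told apart there. Of all genes 14.6% were lower in WT-donor cells than in WT microglia, and 13.7% in KO-donor cells than in KO microglia. In KO-donor against WT-donor cells 2.99% were higher. In WT against normal microglia 0.952% were lower and 2.83% higher, and in KO against WT microglia 2.59% were lower. Of 16 such genes 13 were lower and 0 higher in WT-donor cells than in WT microglia (median log2 difference −0.89), and 10 were lower in KO-donor cells than in KO microglia (median −0.73). In KO-donor against WT-donor cells 5 of 16 were higher (median 0.28; 0 without S30 and S31), and in WT against normal microglia 2 were lower (median −0.27). Of 9 genes of lysosomal damage, partners of galectin-3, 3 rose in WT against normal microglia (median 0.44) and 2 fell in KO against WT microglia (median −0.33; 0 without S25 and S27).

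Among markers of other cells, 7 of 8 T and NK cell markers were higher in WT-donor cells than in WT microglia (median 3.31; 2 without S30 and S31), 6 of 8 in KO-donor cells than in KO microglia (median 2.27) and 3 of 8 in KO than in WT microglia (median 2.32). Of 9 border macrophage markers 6 were higher and 1 lower in WT-donor cells than in WT microglia (3 lower without S30 and S31), and 3 were higher in KO than in WT microglia (0 without S25 and S27). Of 6 astrocyte markers 6 were lower in KO-donor cells than in KO microglia (median −2.24). The shares of all genes were 13.6% higher and 14.6% lower in WT-donor cells than in WT microglia. They were 11.7% and 13.7% in KO-donor cells against KO microglia, and 2.99% and 3.75% in KO-donor against WT-donor cells. In KO against WT microglia 2.5% were higher. Of 6 endothelial markers 2 were lower in KO-donor than in WT-donor cells (median −1.47, and 0 without S30 and S31). Of 4 B cell markers 2 were higher (1 without S30 and S31) and 1 lower in WT-donor cells than in WT microglia. Of 2 neuron markers 1 was higher in WT-donor cells than in WT microglia, too few to be a result about neuron markers. Of 9 microglia markers 8 were lower in WT-donor cells than in WT microglia (median −0.83), while 5 of 7 markers of brain macrophages of blood origin were higher (median 1.75). Of 9 tested dendritic cell markers 1 was higher in KO-donor than in WT-donor cells (median 0.11; 0 without S30 and S31) and 1 in KO than in WT microglia (median 0.71; 0 without S25 and S27).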
